A study of Mus musculus with 14 samples.

Results

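This account describes 55 of the 45281 probes on a mouse Illumina bead array, chosen by their detection p-values because their signal was above background in control tissue, absent from it 4 days after tumour inoculation, and above it again at day 14. A bead array measures RNA by the brightness of labelled cRNA bound to each probe. The detection p-value states how often beads with no target in the sample are as bright as the probe. A member had a detection p under 0.05 on all 3 control arrays and all 5 day 14 arrays, and of 0.05 or more on all 6 day 4 arrays. The choice used every array, so the drop at day 4 and the return to detection at day 14 are given as a description, with no test. The choice set a floor on control and day 14 alike but no difference between them, and that difference was tested.

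Total RNA came from tissue of 8-week-old BALB/C mice, 1 array per sample. The groups were control tissue (3 samples), tumour microenvironment 4 days after inoculation (6 samples) and tumour microenvironment 14 days after inoculation (5 samples). AB1, the tumour line, is a mouse mesothelioma line, that is, a cancer of the lining of the body cavities, and it is grown in BALB/c hosts. The labels name no anatomical site for the control tissue, do not say whether tumour cells were part of the microenvironment samples, and do not state that samples came from separate animals, so p-values measure the spread between these samples.

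The tissue label could be checked only in part, since the named probes had all been detected on at least 10 of the 14 arrays, so that detection of a listed gene in control was nearly given. Loricrin (Lor), a protein of the cornified envelope, averaged 12.64 on the log2 intensity scale over the control arrays, and Krt10, a keratin of the upper epidermis, 12.66. Genes listed for other tissues were bright too: Dcn (fibroblast and matrix) averaged 11.58, Acta1 (skeletal muscle) 11.45 and Scd1 (adipocyte) 10.89. These values do not set the site of the tissue. Arrays detected between 10659 and 11772 probes in control, 8257 and 12370 at day 4, and 7059 and 13867 at day 14. Day 14 replicate 5 and day 4 replicate 2 had the lowest counts. Without both arrays the choice of members gave 66 probes.

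None of the 55 members is among the 7016 probes that the gene table used here covers, so none is paired with a gene and each is given by its probe identifier. Several members may therefore belong to the same gene. The genes of other probes are set beside the members further on.

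At day 4 the members sat in the background. Their median log2 intensity per array, after background correction and quantile normalization, was 8.57 to 8.98 in control, 4.22 to 4.28 at day 4 and 6.78 to 8.01 at day 14. The 3 groups did not overlap in this median. Its mean ± SD was 8.73 ± 0.22 over 3 control arrays, 4.26 ± 0.02 over 6 day 4 arrays and 7.31 ± 0.54 over 5 day 14 arrays. Among the 330 detection p-values of the members at day 4, 159, or 48.2%, were 0.5 or more, and 15 were under 0.1. The median of these p-values lay between 0.397 and 0.632 on each of the 6 arrays. In raw intensity, the members' median at day 4 was 79.9 to 83.8, while the median of all probes on the same arrays was 81.4 to 85.0.

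The loss could be stated only as a lower bound, on the background-corrected scale used here. The bound sets the control mean against, on each day 4 array, whichever is brighter, the member or the dimmest detected probe. By this bound 39 members stood at least 8-fold lower on day 4 than in control, 29 passed 16-fold and 13 passed 32-fold. The bound had a median of 20.3-fold and quartiles of 6.90-fold and 30.3-fold. The background step sets its size: the median bound was 8.21-fold, with 28 members at 8-fold or more, by normexp without negative controls, and 6.19-fold, with 18 such members, without correction. At the lower end, 2 members had control values so close to background that their bounds were 1.17-fold and 1.25-fold.

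The members spanned a wide range of control levels, from a mean log2 intensity of 4.84 to one of 11.86, with a median of 8.95. The median over all 14916 tested probes was 4.87. A probe was tested if it was detected on at least 3 arrays, which every member was by its choice. The probes that were detected on all control arrays and on no day 4 array, but not on all day 14 arrays, were dimmer to begin with. That order is partly built into the choice, since a dim probe more easily falls below the detection limit. The control means of these probes ran from 4.59 to 8.65. For these 79 probes the medians were 4.99, 4.31 and 4.53 on the log2 scale in control, at day 4 and at day 14.

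The brightest member in control was ILMN_2611658. Its log2 intensity was 12.41, 11.99 and 11.19 on the control arrays. At day 4 its lowest, median and highest values were 4.20, 4.33 and 4.41, and at day 14 it stood at 9.75, 10.72, 10.56, 10.13 and 10.23. Every control value lay above every day 14 value, and both groups lay far above day 4. It was at least 153-fold lower at day 4 than in control, and day 14 exceeded day 4 by at least 50.8-fold. Without background correction these bounds were 41.2-fold and 14.3-fold. In raw intensity it had 79.8 to 87.1 at day 4, against 4893, 4725 and 2704 in control.

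The next brightest members behaved alike. ILMN_2477669 had 11.89, 11.66 and 11.35 in control, 4.25, 4.42 and 4.43 as lowest, median and highest at day 4, and 9.67, 10.55, 10.58, 10.12 and 10.05 at day 14. ILMN_2635325 had 11.63, 11.13 and 11.06 in control, 4.26, 4.31 and 4.49 in the same order at day 4, and 9.55, 10.37, 10.58, 9.87 and 10.10 at day 14. For both, no day 14 array reached the lowest control array. ILMN_1235868 had 11.54, 11.29 and 10.81 in control, 4.23, 4.27 and 4.42 at day 4, and 8.77, 9.94, 9.44, 9.46 and 9.66 at day 14. The day 4 bounds of these 3 probes were 130-fold, 101-fold and 97.1-fold, and 35.1-fold, 27.6-fold and 26.5-fold without background correction.

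The following 8 members by control level, with bounds of 36.7-fold to 70.7-fold, showed the same order of groups. ILMN_2682462 had 9.27, 9.65, 10.10, 9.59 and 9.63 at day 14, against 10.48, 10.66 and 11.13 in control. ILMN_2648153 had 9.11, 10.14, 9.96, 9.93 and 9.72 at day 14, against 10.56, 10.89 and 10.74 in control. In these 2 probes control replicate 1 was the lowest control array, unlike in most members. ILMN_2719704 had 8.56, 9.11, 8.81, 8.71 and 9.04 at day 14, against 11.38, 10.61 and 10.09 in control. ILMN_2732782 had 8.63, 9.71, 9.44, 9.22 and 9.22 at day 14, against 10.94, 10.51 and 10.41 in control. In both, control replicate 1 was the brightest array of all. ILMN_2436600 had 8.39, 9.63, 8.89, 9.07 and 9.32 at day 14, against 10.58, 10.41 and 9.95 in control. ILMN_2761643 had 8.59, 8.83, 8.76, 8.19 and 9.43 at day 14, against 10.34, 10.11 and 9.63 in control. ILMN_1213227 had 7.99, 8.60, 8.59, 8.35 and 8.32 at day 14, against 10.24, 9.76 and 9.42 in control. None of these probes had a day 14 array inside the control range, and ILMN_2856457, the other of the 8, is given further on with the least restored members.

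The return at day 14 was incomplete. Of the 55 members, 48, or 87.3%, passed the test as lower at day 14 relative to control and 0 as higher, at a Benjamini-Hochberg adjusted p under 0.05 from limma. Over all tested probes, 6.74% were called lower and 5.37% higher in this comparison. The day 14 arrays lay wholly below the control arrays for 45 members (81.8%), against 10.6% of all tested probes, and wholly above for 0, against 8.17%. The median log2 difference of the members was -1.27, which is 2.41-fold lower, and the median over all tested probes was 0.01. These comparisons were not matched for brightness: the median control level was 8.95 for members and 4.87 for all tested probes. A probe near background has little room to fall. Detection on the same control arrays was part of the choice, which may favour high control values.

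That call depends on the scaling. Under median scaling in place of quantile normalization, 11 of the 55 members were called lower and 0 higher. The median difference of the members there was -1.33 and 52 of 55 members had a negative difference, against 53 in the fit reported here. The median standard error of the members was 0.393 under median scaling and 0.211 under quantile normalization.

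Across the 55 probes, which are not independent replicates, control and day 14 means had a Pearson r of 0.936 and a Spearman rho of 0.932. Levels of different probes also reflect how well each binds its target, so a high value says little about the genes. The 19 brightest members had a median log2 difference of -1.37 between day 14 and control, the 18 in the middle -1.39 and the 18 dimmest -0.93. All 19 of the brightest, 17 of the middle and 12 of the dimmest were called lower.

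The least restored member was ILMN_2856457. It had log2 intensities of 6.30, 8.73, 8.20, 7.96 and 8.38 at day 14, against 11.57, 10.09 and 9.74 in control. The groups did not overlap, and replicate 1 was the lowest at day 14 and the highest in control. The log2 difference of -2.55 (SE 0.431) had a limma adjusted p of 0.000855, and it was -1.99 when control replicate 1 was left out. ILMN_2868414 had 6.44, 8.07, 7.82, 7.15 and 6.80 at day 14, against 10.05, 8.94 and 10.34 in control. Again no array overlapped, with a log2 difference of -2.52 (SE 0.326) and a limma adjusted p of 8.38e-05. Both lay wholly below control by a wide margin. ILMN_2711452 had 5.34, 6.98, 7.66, 5.48 and 5.96 at day 14, against 9.30, 8.44 and 8.03 in control. ILMN_2851218 had 6.49, 7.57, 7.04, 6.47 and 6.53 at day 14, against 10.05, 8.77 and 8.31 in control. ILMN_1248058 had 5.23, 5.82, 6.05, 5.47 and 4.99 at day 14, against 8.14, 7.37 and 7.60 in control. These 3 probes, with log2 differences of -2.31, -2.23 and -2.19, also had no overlap, and the last had the lowest limma adjusted p among the members, 5.42e-06. Without background correction the differences of ILMN_2711452 and ILMN_1248058 were -1.58 and -1.29, and under median scaling ILMN_2711452 had a limma adjusted p of 0.11. In all, 39 members were at least 2-fold lower at day 14 and 6 at least 4-fold.

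A total of 7 members did not pass the test, with limma adjusted p-values of 0.052 to 0.933. The dimmest, ILMN_2710905, had 4.63, 4.88, 4.63, 4.92 and 5.00 at day 14, against 4.95, 4.81 and 4.75 in control. These ranges overlapped and the log2 difference was -0.02 (SE 0.130). ILMN_1257630 had 4.97, 4.77, 4.98, 5.28 and 5.56 at day 14, against 5.22, 4.79 and 4.80 in control. The log2 difference of 0.18 (SE 0.167) had a limma adjusted p of 0.592. Both probes were close to background on every array. ILMN_2796595 had 5.25, 6.43, 6.11, 6.20 and 6.15 at day 14, against 6.79, 6.52 and 6.51 in control. ILMN_2599251 had 4.91, 5.89, 5.68, 5.33 and 6.55 at day 14, against 6.51, 5.91 and 6.30 in control. The first did not overlap between groups and had a limma adjusted p of 0.0731, and the second did overlap, at 0.200.

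ILMN_2581604 stood apart from the other members. It had log2 intensities of 11.09, 10.15, 7.08, 6.65 and 7.48 at day 14, against 8.38, 7.87 and 7.80 in control, and between 4.17 and 4.41 at day 4. On 2 day 14 arrays it was above every control array, and on the other 3 it was below every control array. The raw intensities showed the same split, with 2271 and 2076 on day 14 replicates 1 and 2, against 161 to 292 on day 14 replicates 3 to 5 and 318 to 400 in control. The mean log2 difference of 0.47 (SE 0.724) had a limma adjusted p of 0.752, and it was -0.18 when day 14 replicate 1 was left out.

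Many members shared their high and low arrays at day 14. On day 14 replicate 2, 50 of the 55 members were above their own day 14 mean, on replicate 3 it was 45, and on replicate 1 it was 5. Replicates 4 and 5 were near an even split, with 23 and 25. Replicate 1 was the lowest day 14 array for 36 members. Replicates 2 and 3 also had the most detected probes of the group, 13867 and 13693, and replicate 1 had 10589. Replicate 5, with the fewest, was the lowest array for 9 members and the highest for 10. In control, replicate 1 was the highest array for 45 members. The part of array quality in these differences was not tested. The median SD of a member was 0.412 in control and 0.418 at day 14, against 0.183 and 0.244 over all tested probes. At day 4, where the members were at background, the median SD of a member was 0.068. These SDs were not matched for brightness, with median control levels of 8.95 for members and 4.87 for all tested probes.

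In control, 53 members had a detection p of 0 on every array, and the highest value of any member was 0.0128. At day 4 the lowest p-values of a member were 0.0502, 0.0513 and 0.0524, the second of them from ILMN_2682462, a bright member in control, and at day 14 the highest were 0.0459, 0.0459 and 0.0491. Just outside, 2 probes had 0.0491 on a single day 4 array, and another had 0.0534 on a single day 14 array. In total 12 probes missed by 1 day 4 array, 12 by 1 day 14 array and 3 by 1 control array.

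Since the members have no gene names here, the named probes with the most similar course were set beside them. The list was made after values were seen and shares the 14 arrays and the 3 groups with the members, so it is a description. Of 6083 named probes, 29 had a Pearson correlation over 0.9 with the median member over the 14 arrays, a figure set mostly by the differences between groups. The 10 closest genes, at 0.948 to 0.977, were Chac1, Krt27, Gjb2, Cpm, Cyria, Slc40a1, Rnaset2b, Ctps, Tpm1 and Gjb6.

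Krt27 encodes a type I keratin of the inner root sheath, the layer that guides the growing hair inside its follicle. Hair follicles pass through cycles of growth, regression and rest, and inner root sheath keratins are made in the growth phase. Krt27 had log2 intensities of 12.84, 12.35 and 12.03 in control, a lowest, median and highest of 4.30, 5.36 and 6.41 at day 4, and 10.84, 11.60, 11.23, 11.19 and 11.13 at day 14. Detection on 5 of the 6 day 4 arrays kept it out of the members. Its course was otherwise that of the brightest members.

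Gjb2 and Gjb6 encode connexins 26 and 30, subunits of gap junctions in epidermis and hair follicles. Gjb2 had a mean ± SD of 10.38 ± 0.46 over 3 control arrays, 5.24 ± 0.80 over 6 day 4 arrays and 8.65 ± 0.56 over 5 day 14 arrays. Gjb6 averaged 7.91 ± 0.36, 4.73 ± 0.40 and 6.29 ± 0.34 in the same order. Chac1, which degrades glutathione, averaged 9.49 ± 0.15, 4.93 ± 0.41 and 8.71 ± 0.23. Slc40a1, the cellular iron exporter ferroportin, averaged 9.18 ± 0.11, 6.86 ± 0.40 and 8.32 ± 0.25. All of these were lowest at day 4 and stayed below the control mean at day 14, a course largely set by their choice for similarity to the members. Of the closest genes listed above, Rnaset2b and Tpm1 were not called lower at day 14 than in control (limma adjusted p = 0.0548 and 0.116). The others were called lower. Under median scaling none was, with limma adjusted p-values from 0.0655 (Gjb6) to 0.849 (Tpm1).

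Of the fixed list of 36 hair follicle and hair keratin genes, 4 were measured by a named probe: Krt27, Dlx3, Sox9 and Krt79. The list was written with earlier results of these data known. At day 4, 3 of the 4 were called lower than in control and 0 higher, against 2.92% and 1.84% of all tested probes. Shares over all tested probes are not matched to these genes, since every named probe was detected on at least 10 of 14 arrays. A gene detected on no day 4 array could therefore not be among the 4. The limma log2 difference was -7.14 for Krt27 (standard error 0.329, adjusted p = 6.05e-11) and -3.04 for Dlx3 (standard error 0.295, adjusted p = 2.05e-06), a homeobox factor of hair and tooth development. It was -0.74 for Sox9 (standard error 0.169, adjusted p = 0.016), a factor of follicle stem cells, and 0.17 for Krt79 (adjusted p = 0.858), a keratin of the upper follicle and sebaceous duct. At day 14, all 4 were called lower than in control and 0 higher, against 6.74% and 5.37% of all tested probes. The log2 differences from control were then -1.21, -1.81, -0.59 and -1.18 for Krt27, Dlx3, Sox9 and Krt79. Between day 14 and day 4, 2 were called higher at day 14 and 1 lower, against 8.51% and 8.58% of all tested probes. Median scaling left 2 of these 4 as lower at day 4, and 0 at day 14, and turned the day 4 difference of Krt79 negative. Between day 14 and day 4 it left Krt27 alone as called, while Dlx3 and Krt79 had limma adjusted p-values of 0.0683 and 0.293.

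Of 15 measured epidermal keratinocyte genes, 5 were called higher at day 4 than in control and 0 lower, with a median log2 difference of 0.61. Krtdap, a secreted protein of differentiating keratinocytes, had the largest rise, 1.03 (limma adjusted p = 0.0169). The difference was positive for 12 of the 15 genes and negative, without a call, for Ivl (-1.09), Trp63 (-0.46) and Cdsn (-0.19). At day 14, 12 of the 15 were called lower and 0 higher against control, at a median of -1.21. Over all tested probes, 1.84% were called higher and 2.92% lower at day 4, and 5.37% and 6.74% at day 14. As above, these shares are not matched to the listed genes. The day 14 medians of the hair follicle, sebaceous gland, adipocyte and circadian clock genes were -1.20, -1.18, -1.17 and -1.14, and that of the members was -1.27. Medians of other lists ran from -1.93 (melanocyte, 1 gene) to 2.65 (interferon response, 5 genes), with fibroblast and matrix at 0.17. Ltf, the 1 gene measured of both the mammary epithelium and the neutrophil list, stood at -1.33 and was called lower. Whether any list lies nearer to the members than others was not tested. Of 4 clock genes, 3 were called lower at day 14, and 0 under median scaling, while Clock stood at 0.36. Of 11 adipocyte genes, 0 were called in either direction at day 4 and 9 were lower by the test at day 14, among them Scd1, a desaturase of fat synthesis, with a log2 difference of -1.74 (limma adjusted p = 0.000241). Of 3 sebaceous gland genes, 0 were called at day 4 and 2, Mgst1 and Krt79, were lower by the test at day 14. Krt79 is the same probe as in the hair follicle list, so the 2 lists are not separate. Its values are also the sebaceous medians, and the remaining gene, Elovl5, stood at 0.39 at day 14. With median scaling, none of these epidermal, adipocyte and sebaceous calls against control passed the test, while the medians for the epidermal and adipocyte genes kept their sign at both times. The median of the sebaceous genes at day 4 changed sign there, at -0.14 against 0.17.

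Of 17 measured skeletal muscle genes, 5 were called higher at day 4 than in control and 0 lower. Over all tested probes, 1.84% were called higher at day 4 and 2.92% lower. The median log2 difference of the muscle genes at day 4 was 1.62, and 0 of them were called at day 14. Ttn, the giant spring protein of the sarcomere, was higher at day 4 by 2.56 (limma adjusted p = 0.000294). Under median scaling 0 were called at day 4, and under cyclic loess 13, and all 17 differences were positive under either scaling. Of 6 macrophage and monocyte genes, 0 were called at day 4 and 4 were called higher at day 14, and of 5 interferon response genes, 0 and 4, where 5.37% of all tested probes were called higher at day 14. Under median scaling these day 14 counts were 1 and 3. In bulk tissue, fewer cells of a type and less RNA per cell cannot be told apart, and the part of tissue make-up in the members' course was not tested.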

How the data were processed

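The deposited table gave 1 intensity per probe and array on a linear scale, which the authors did not normalize, and a detection p-value beside it, per the file headers; the export software is not given in the sources used here. A second deposited table held log2 values of 7016 probes; each column had the same median, 7.01, and the rank order of 1 array. It held only probes detected on at least 10 of 14 arrays, hence no member, each of which was detected on 8. A platform annotation gave 6083 of its probes a single gene symbol, 3 several and 930 none; 6075 gene IDs were found in the GRCm38.p6 RefSeq table, with no symbol to update.

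Intensities were corrected by normexp with negative controls derived from detection p-values (offset 16), quantile-normalized and log2-transformed (limma 3.58.1, R 4.3.3). Probes detected (p under 0.05) on at least 3 arrays were fitted over all 14 arrays with lmFit and eBayes, two-sided, with Benjamini-Hochberg adjustment over 14916 probes. On simulated data a log2 change of 1 between day 14 and control was recovered for 75% of probes and of 2 for 100%. Of all calls there, 4.37% were false. The simulation drew independent noise for each probe, without array or scaling effects, so it does not cover the dependence on scaling. For listed genes the brightest tested probe was used. The members, the 22 gene lists and the tests were chosen with earlier results of these data known. Named with values were members from the 12 brightest in control, the 5 largest and 5 smallest differences between day 14 and control, and those at the detection limit; the genes set beside them were picked after values were seen. Alternatives changed background, scaling, filter, threshold, variance model and arrays; recomputing the bounds under other background steps was chosen after seeing the data. The number of arrays limits the precision. No per-sample column was left unused.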

Additional observations from a re-analysis of the deposited data

Results flagged for a closer look

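Of 66 measures checked for a lone distant array within a group, 1 showed it; chance alone gives about 1 in 20. The member ILMN_2796595 had a log2 intensity of 5.25 on day 14 replicate 1, while the remaining day 14 arrays lay at 6.11 to 6.43.

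For 3 of the 4 measured hair follicle genes, limma called a difference between day 14 and day 4, the comparison already given above. The control mean cancels from it, so it is no separate test of the changes from control. The log2 difference, day 14 minus day 4, was 5.93 for Krt27 (adjusted p = 9.18e-11) and 1.23 for Dlx3 (adjusted p = 0.00208). For Krt79 it was -1.35 (adjusted p = 0.000442), in the opposite direction. Under median scaling the value for Krt27 was 6.10 (adjusted p = 5.75e-07), while Dlx3, at 1.38, and Krt79, at -1.01, did not pass the test (adjusted p = 0.0683 and 0.293).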

How the results depend on the processing

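The count of 55 members was 49 with a detection limit of 0.01 on every side, 44 with 0.01 only where detection was required, 67 when 1 day 4 array could detect the probe, and 55 to 63 when an array was left out in turn. The 48 members called lower at day 14 became 11 under median scaling, where 77.3% of all calls between day 14 and control were higher, against 44.4% under quantile normalization. They were 44 to 51 when an array was left out, 46 with the replicate number as a block, and 48 without day 4 replicate 2 and day 14 replicate 5, an alternative chosen after seeing the data. The count of members called higher was 0 in every alternative run, and the series matrix values could not be used for members. The median of the members ran from -1.40 to -1.12 for day 14 minus control, -4.86 to -4.33 for day 4 minus control and 3.00 to 3.33 for day 14 minus day 4 when an array was left out. Medians against day 4, and the bounds given in the text, depend on the background step: day 4 minus control was -2.86 without correction and -3.34 with normexp without negative controls, against -4.76, and day 14 minus day 4 was 1.55 and 1.92, against 3.15. Over all probes, 709, 1806 and 2549 were called for, in this order, day 4 versus control, day 14 versus control, and day 14 versus day 4. These became 187, 203 and 665 under median scaling and 332, 948 and 1581 at an adjusted p under 0.01. Without the filter the first 2 were 393 and 1154, and with array weights the first was 1145. Leaving out an array gave 271 to 921, 1103 to 2018 and 2108 to 2529, with the lowest of the first 2 without control replicate 1 (462 and 1201 without control replicate 2), and omitting both dim arrays gave 971 and 2023 for the first 2. The causes were not tested. Same-numbered arrays did not deviate together: 4 of 11 pairs had a correlation over 0.1, and 1 of 14 arrays was closest to its own number. That check cannot exclude a pairing, also because control replicates 1 and 2 are numbered differently in the 2 deposited tables. The block, with the numbers of the intensity table, gave 485, 1279 and 2363 calls. Dim probes near background limit what can be seen at day 4.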

Other observations

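The control arrays are numbered differently in the 2 deposited tables. The log2 column labelled control replicate 1 had a rank correlation of 1 with the intensities labelled control replicate 2, and of 0.933 with those labelled control replicate 1, and the reverse held for the other column. The other 12 columns had a rank correlation of 1 with the array of their own label. All are control samples, so no group value changes, but a statement on control replicate 1 here follows the intensity table. The check of same-numbered arrays and the replicate block also use its numbers.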
